A study of Mus musculus with 6 samples.

Results

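The receptors of the ERBB family, the ligands that bind them and the feedback inhibitor gene Errfi1 were followed in mouse ovarian surface epithelial cells, the single cell layer that covers the ovary. These 10 genes (Egfr, Erbb2, Erbb3, Areg, Ereg, Hbegf, Tgfa, Btc, Nrg1 and Errfi1) were taken by symbol as a named family, out of 48440 genes in the deposited count table. The 3 Ad-Cre-GFP libraries came from cells labelled as a Lats1/2 knockout, which received an adenovirus carrying Cre recombinase and GFP. The 3 Ad-GFP libraries came from cells labelled WT, which received an adenovirus carrying GFP alone. RNA was taken 1 week after the virus, and both groups therefore share viral infection and GFP. Nothing in the labels gives the strain, age or number of the source animals, the alleles that Cre acts on or whether the libraries came from separate cultures. The p-values therefore measure the spread between these libraries, which may be technical. Deletion of Lats1 and Lats2 and exposure to Cre cannot be told apart in this design.

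In the Hippo pathway the kinases LATS1 and LATS2 hold back the coactivators YAP and TAZ. ERBB receptors are cell surface tyrosine kinases that pair when a ligand binds and then feed the RAS-ERK and PI3K-AKT pathways. EGFR binds EGF, TGF-alpha, amphiregulin (Areg), epiregulin (Ereg), HB-EGF (Hbegf), betacellulin (Btc) and epigen. ERBB3 binds neuregulins, has a weak kinase and signals through a partner such as ERBB2, which has no known ligand of its own. The ligands are made as membrane-anchored precursors and are released by metalloproteases of the ADAM family. ERRFI1, also called MIG6, binds the active kinase domain and blocks it. In the mouse ovary amphiregulin, epiregulin and betacellulin are known for passing the ovulatory signal within the follicle, and AREG is a known YAP target in human mammary epithelial cells.

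Libraries held 27734527 to 30304033 counts in the Ad-Cre-GFP group and 18690235 to 25363462 in the Ad-GFP group. Lats1 fell to 37.1 ± 1.36 counts per 1000000 (CPM, scaled by the TMM method) in Ad-Cre-GFP libraries, against 159 ± 8.75 CPM in Ad-GFP libraries (SD, n = 3 each), and Lats2 fell to 98.7 ± 1.97 CPM in Ad-Cre-GFP, against 130 ± 2.16 CPM in Ad-GFP libraries. These counts cover whole genes and do not measure the deleted part. Ad-GFP replicate 3, the shallowest library, scored 18.7 on principal component 2, away from -8.85 and -11.1 for Ad-GFP replicates 1 and 2. That component held 3.15% of the variance, against 89.5% for component 1, which separated the groups. Without Ad-GFP replicate 3 the calls of the 10 genes were the same. Markers of the surface epithelium and mesothelium, led by Msln, summed to 3006 to 3042 CPM in Ad-Cre-GFP and 3117 to 3188 CPM in Ad-GFP libraries, with 14 of 15 above the filter on low counts and Aldh1a2 at 0. Of these 14, 5 were called higher and 8 lower in Ad-Cre-GFP. Over all 14811 tested genes 34.0% were called higher and 35.8% lower, which is the background for each marker count here. Stromal fibroblast markers, led by Col3a1, summed to 984 to 1045 CPM in Ad-Cre-GFP and 2675 to 2842 CPM in Ad-GFP libraries. Of these, 5 of 5 tested genes were lower, and Lum and Tcf21 were at 0 in all 6 libraries. Granulosa markers, led by Inhbb, summed to 324 to 337 CPM in Ad-Cre-GFP and 134 to 146 CPM in Ad-GFP libraries. Of 4 tested granulosa genes 3 were higher and 1 lower, with Fshr and Cyp19a1 at 0. Theca markers, led by Nr5a1, summed to 95.7 to 97.7 CPM in Ad-Cre-GFP and 130 to 131 CPM in Ad-GFP libraries. Only 2 of the 6 listed theca genes were tested, and these 2 were lower, with Hsd3b1 and Lhcgr at 0. Pericyte and smooth muscle markers were at 23.5 to 26.7 CPM in Ad-Cre-GFP and 7.90 to 8.34 CPM in Ad-GFP libraries. Only 2 of these 5 listed genes were tested, and these 2 were higher. Endothelial markers, led by Flt1, summed to 10.2 to 11.6 CPM in Ad-Cre-GFP and 3.02 to 3.13 CPM in Ad-GFP libraries. Only 2 of the 6 listed endothelial genes were tested, and these 2 were higher, with Tie1 at 0. Immune markers summed to 6.62 to 7.23 CPM in Ad-Cre-GFP and 11.0 to 13.1 CPM in Ad-GFP libraries. Oviduct markers summed to 2.68 to 2.98 CPM in Ad-Cre-GFP and 3.40 to 4.51 CPM in Ad-GFP libraries. Of the 7 immune and 4 oviduct genes listed, 2 in each list were tested, with 1 of 2 lower in each. The part of these shifts in the results below was not tested.

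On GRCm38 the receptor genes lie at chr11:16752203-16918158 (Egfr, plus strand), chr11:98412470-98437716 (Erbb2, plus) and chr10:128567523-128589652 (Erbb3, minus). The ligand genes lie at chr5:91139599-91148432 (Areg, plus), chr5:91074622-91093646 (Ereg, plus), chr5:91357261-91402994 (Btc, minus), chr6:86195223-86275719 (Tgfa, plus), chr18:36504927-36515805 (Hbegf, minus) and chr8:31814551-32884029 (Nrg1, minus), and Errfi1 at chr4:150853919-150868892 (plus).

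All 10 genes passed the filter on low counts and all 10 were called by edgeR's quasi-likelihood test at a Benjamini-Hochberg adjusted p under 0.05, 6 higher and 4 lower in Ad-Cre-GFP. This has to be read against the whole table, in which 69.8% of 14811 tested genes were called, 34.0% higher and 35.8% lower. The groups did not overlap for any of the 10 genes, as for 73.0% of all tested genes. The median absolute log2 fold change was 0.60 over the 10 genes and 0.35 over all tested genes, and a call says little by itself where most genes are called. In bulk RNA, fewer cells of a type and less RNA per cell cannot be told apart.

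**Figure D1:**
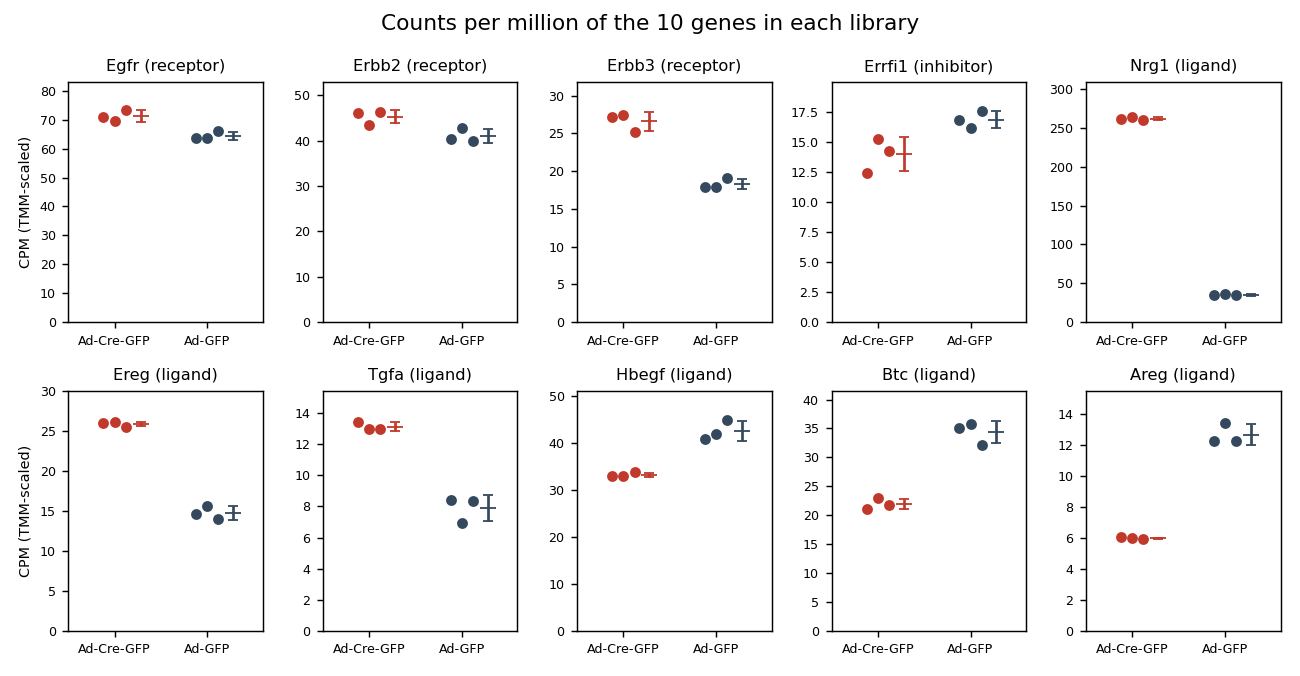
TMM-scaled CPM (vertical axis, starting at 0) of the 10 genes in the 3 Ad-Cre-GFP libraries (red) and the 3 Ad-GFP libraries (dark). Points are libraries and the bars beside them are mean ± SD; the groups do not overlap in any panel, and Nrg1 shows the largest gap, with a mean of 262 CPM in Ad-Cre-GFP and 35.2 CPM in Ad-GFP libraries.

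Of the receptors, Erbb3 changed most and Egfr and Erbb2 changed little. Erbb3 had 27.2, 27.4 and 25.2 CPM in Ad-Cre-GFP libraries, against 18.0, 17.9 and 19.1 CPM in Ad-GFP libraries. Every Ad-Cre-GFP library lay above every Ad-GFP library. The log2 fold change, Ad-Cre-GFP over Ad-GFP, was 0.54 ± 0.06 (SE, adjusted p = 2.51e-08). Egfr had 70.8, 69.6 and 73.5 CPM in Ad-Cre-GFP libraries, against 63.8, 63.7 and 66.0 CPM in Ad-GFP libraries, a log2 fold change of 0.15 ± 0.04 (adjusted p = 0.00158). Erbb2 had 46.1, 43.5 and 46.2 CPM in Ad-Cre-GFP libraries, against 40.4, 42.8 and 40.0 CPM in Ad-GFP libraries, a log2 fold change of 0.14 ± 0.05 (adjusted p = 0.0101). The groups were separate for both genes but lay close, and for Erbb2 the lowest Ad-Cre-GFP library was only just above the highest Ad-GFP library. A larger absolute log2 fold change was found for 76.1% of tested genes in the case of Egfr, 77.3% in the case of Erbb2 and 32.9% in the case of Erbb3.

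Set per length, as CPM per kilobase of annotated exon, the receptors kept one order in both groups. The order and the shares depend on the length used, and no other length was tried for the receptors. By CPM alone Egfr led, with a mean of 71.3 in Ad-Cre-GFP and 64.5 in Ad-GFP libraries, against 45.3 and 41.1 for Erbb2. Erbb2 stood at 8.69 ± 0.29 in Ad-Cre-GFP and 7.88 ± 0.29 in Ad-GFP libraries (SD, n = 3 each). Egfr stood at 6.30 ± 0.18 in Ad-Cre-GFP and 5.69 ± 0.12 in Ad-GFP libraries, and Erbb3 at 4.42 ± 0.21 in Ad-Cre-GFP and 3.04 ± 0.11 in Ad-GFP libraries. The ranges of neighbouring receptors did not overlap in either group. Erbb3 made up 22.8 ± 1.28% of the summed receptor level in Ad-Cre-GFP and 18.3 ± 0.67% in Ad-GFP libraries. The ratio of Erbb3 to Erbb2 counts, which does not depend on scaling between libraries, was 0.591, 0.630 and 0.545 in Ad-Cre-GFP libraries and 0.444, 0.418 and 0.477 in Ad-GFP libraries. The groups did not overlap, and a two-sided exact permutation test gave p = 0.1, the smallest that 3 against 3 libraries allow. Erbb4, the remaining receptor gene of the family and the other neuregulin receptor, had 0 counts in all 6 libraries, which allows up to 0.108 CPM in any Ad-Cre-GFP library and 0.161 CPM in any Ad-GFP library by counting error.

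Nrg1, which encodes the ERBB3 ligand neuregulin-1, showed by far the largest change of the 10 genes. It had 261, 264 and 260.5 CPM in Ad-Cre-GFP libraries, against 34.7, 36.6 and 34.2 CPM in Ad-GFP libraries. The libraries of each group lay within a narrow band and the bands were far apart. The log2 fold change was 2.89 ± 0.04 (adjusted p = 5.45e-24), which is 7.44-fold higher in Ad-Cre-GFP by the group means, and only 2.14% of tested genes had a larger absolute change. Nrg1 has many isoforms with different start sites, which counts per gene do not resolve. The lincRNA Gm26578 lies opposite to it and shares 482 exon bases with it. Gm26578 held 73 counts in all, against 25010 for Nrg1.

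The other neuregulins did not move as one. Nrg2 rose to 12.4 ± 1.55 CPM in Ad-Cre-GFP, against 4.45 ± 0.23 CPM in Ad-GFP libraries (log2 fold change 1.48 ± 0.11, adjusted p = 3.83e-11). Nrg4, a ligand of ERBB4, had 45 counts over the Ad-Cre-GFP libraries and 34 over the Ad-GFP libraries and was not called (log2 fold change 0.02 ± 0.35, adjusted p = 0.958). Nrg3 had 0 counts in all 6 libraries.

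The genes whose profile over the 6 libraries lay nearest to that of Nrg1 were Serpinb9b, Prex2, Slc1a6, Ddah1 and Slc24a3. Nearness was the Euclidean distance between centred log2(CPM + 0.5) profiles, among tested genes that averaged 5 CPM or more, and the distances ran from 0.08 for Serpinb9b to 0.13 for Slc24a3. Serpinb9b, a serine protease inhibitor gene, had 463 ± 10.2 CPM in Ad-Cre-GFP and 63.8 ± 3.51 CPM in Ad-GFP libraries. Prex2, which encodes an exchange factor for RAC, had 146 ± 4.08 CPM in Ad-Cre-GFP and 19.1 ± 0.43 CPM in Ad-GFP libraries. With 2 groups of 3 libraries, such nearness mostly states that the fold changes were alike.

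**Figure D2:**
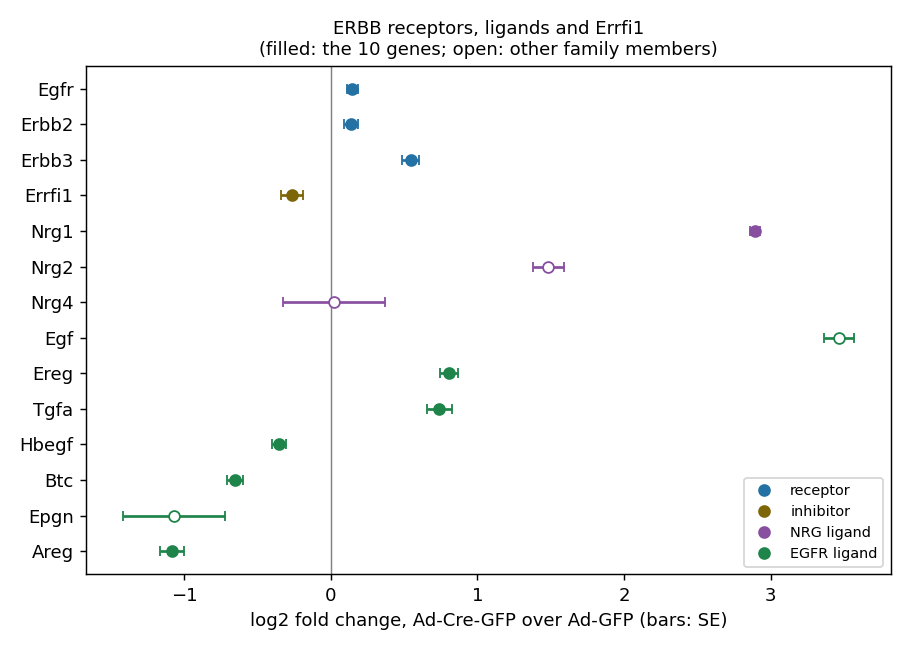
Log2 fold change (horizontal axis, Ad-Cre-GFP over Ad-GFP; bars are SE from edgeR) of the 10 genes (filled) and of 4 other tested ligand genes (open). Nrg1 at 2.89, Egf at 3.47 and Nrg2 at 1.48 lie to the far right, while Areg at -1.08 and Epgn at -1.07 lie furthest left.

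The EGFR ligands split, with Ereg and Tgfa higher and Areg, Btc and Hbegf lower in Ad-Cre-GFP. Ereg had 26.0, 26.1 and 25.6 CPM in Ad-Cre-GFP libraries, against 14.6, 15.7 and 14.0 CPM in Ad-GFP libraries. Tgfa, which encodes TGF-alpha, had 13.4, 12.95 and 12.99 CPM in Ad-Cre-GFP libraries, against 8.39, 6.96 and 8.38 CPM in Ad-GFP libraries. In both cases all Ad-Cre-GFP libraries were above all Ad-GFP libraries. The log2 fold change was 0.81 ± 0.06 for Ereg (adjusted p = 5.64e-11) and 0.74 ± 0.08 for Tgfa (adjusted p = 6.53e-08).

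Areg had 6.02, 5.96 and 5.95 CPM in Ad-Cre-GFP libraries, against 12.3, 13.4 and 12.2 CPM in Ad-GFP libraries. Btc had 21.1, 22.9 and 21.8 CPM in Ad-Cre-GFP libraries, against 35.1, 35.8 and 32.2 CPM in Ad-GFP libraries. Hbegf, whose product also serves as the receptor of diphtheria toxin in human cells, had 33.1, 33.0 and 33.8 CPM in Ad-Cre-GFP libraries, against 40.9, 41.9 and 45.1 CPM in Ad-GFP libraries. All Ad-Cre-GFP libraries lay below all Ad-GFP libraries for each of these ligands, with the widest relative gap for Areg. The log2 fold change was -1.08 ± 0.08 for Areg (adjusted p = 1.30e-10), -0.65 ± 0.05 for Btc (adjusted p = 6.48e-10) and -0.35 ± 0.05 for Hbegf (adjusted p = 8.39e-07). By the group means Areg was 2.12-fold lower, Btc 1.57-fold lower and Hbegf 1.28-fold lower in Ad-Cre-GFP.

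Egf, which encodes the EGFR ligand that names the family, is not among the 10 genes and had the largest fold change of the ligand genes tested. It had 20.7, 21.05 and 18.8 CPM in Ad-Cre-GFP libraries, against 1.78, 1.92 and 1.75 CPM in Ad-GFP libraries (log2 fold change 3.47 ± 0.10, adjusted p = 8.13e-18). Its level stayed low per length, at 1.79 ± 0.11 CPM per kilobase in Ad-Cre-GFP and 0.16 ± 0.01 in Ad-GFP libraries. Of the 6 genes listed as the rest of the family (Erbb4, Egf, Epgn, Nrg2, Nrg3 and Nrg4), 4 were tested, of which Egf and Nrg2 rose, Epgn fell and Nrg4 was not called.

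Per length, the leading ligand differed between the groups. In Ad-Cre-GFP libraries Nrg1 stood at 25.3 ± 0.17 CPM per kilobase, followed by Hbegf at 6.89 ± 0.09, Ereg at 6.28 ± 0.07, Areg at 4.92 ± 0.03, Btc at 4.86 ± 0.20 and Tgfa at 2.02 ± 0.04. The ranges of Areg and Btc overlapped there. In Ad-GFP libraries Areg stood at 10.4 ± 0.55, followed by Hbegf at 8.82 ± 0.45, Btc at 7.61 ± 0.42, Ereg at 3.58 ± 0.20, Nrg1 at 3.40 ± 0.12 and Tgfa at 1.22 ± 0.13 CPM per kilobase. The ranges of Ereg and Nrg1 overlapped in these controls.

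Summed over the 6 ligands, the level was 50.1, 50.6 and 50.1 CPM per kilobase in Ad-Cre-GFP libraries, against 34.5, 36.0 and 34.5 in Ad-GFP libraries. Nrg1 accounted for 50.3 ± 0.08% of that sum in Ad-Cre-GFP and 9.71 ± 0.11% in Ad-GFP libraries. Without Nrg1, the other 5 ligands summed to 24.96 ± 0.14 CPM per kilobase in Ad-Cre-GFP, below the 31.6 ± 0.75 of Ad-GFP libraries. The summed levels of all 6 ligands and of the 5 EGFR ligands therefore differed between groups in opposite directions. Shares depend on the length used, and with the longest annotated transcript in place of all exon bases Nrg1 took 60.9% in Ad-Cre-GFP and 14.3% in Ad-GFP libraries, and Hbegf, not Areg, led in Ad-GFP. Transcript levels do not measure the ligand that is shed.

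**Figure D3:**
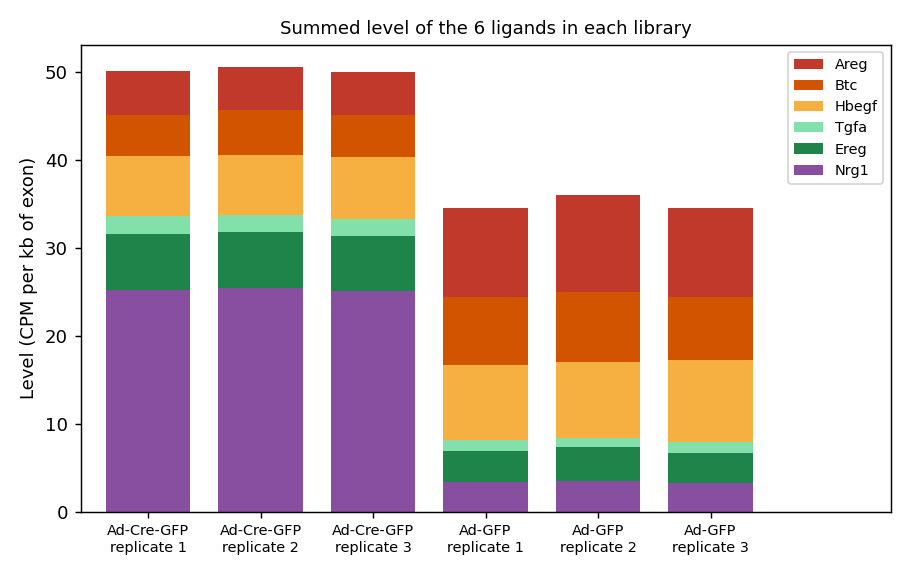
Level of each of the 6 ligands (stacked bars, CPM per kilobase of exon, from 0) in the 3 Ad-Cre-GFP libraries (left) and the 3 Ad-GFP libraries (right). Nrg1, at the foot of each bar, takes 50.3% of the sum in Ad-Cre-GFP and 9.71% in Ad-GFP, and the segments of Areg, Btc and Hbegf are smaller in Ad-Cre-GFP.

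Ereg, Areg and Btc lie with Epgn in one cluster of ligand genes on chromosome 5 (chr5:91027464-91402994, GRCm38), and these neighbours went different ways. The span of 376 kb holds 7 annotated genes, of which 5 were tested. From the start of Ereg, the start of Epgn lies at -47.2 kb and that of Areg at 65.0 kb on the same strand, and Btc starts at 328 kb on the other strand. Ereg rose while Areg and Btc fell. Epgn, which encodes epigen, had only 27 counts over the Ad-Cre-GFP libraries and 44 over the Ad-GFP libraries and was called lower (log2 fold change -1.07 ± 0.35, adjusted p = 0.00963). DESeq2 did not call it (adjusted p = 0.0692), nor did edgeR once Ad-GFP replicate 2 was left out (adjusted p = 0.0831).

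The ratio of Ereg to Areg counts within a library was 4.32, 4.39 and 4.30 in Ad-Cre-GFP libraries, against 1.19, 1.17 and 1.14 in Ad-GFP libraries. The ratio of Ereg to Btc counts was 1.23, 1.14 and 1.17 in Ad-Cre-GFP libraries, against 0.416, 0.438 and 0.434 in Ad-GFP libraries. Both ratios were higher in every Ad-Cre-GFP library, and each gave p = 0.1 in a two-sided exact permutation test, the smallest possible with 3 against 3. Since Ereg rose and Areg and Btc fell without overlap, this outcome was fixed by the single genes and is no further test. An antisense transcript, Gm19610, overlaps Ereg by 141 exon bases. It held 73 counts against 3228 for Ereg and was not called (log2 fold change 0.38 ± 0.35, adjusted p = 0.347).

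**Figure D4:**
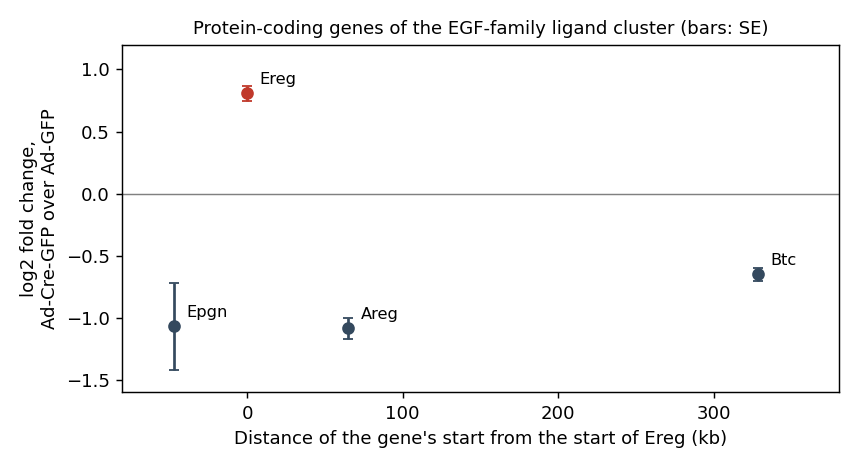
Log2 fold change (vertical axis, Ad-Cre-GFP over Ad-GFP; bars are SE) of the 4 protein-coding genes of the chromosome 5 ligand cluster against the distance of each gene's start from the start of Ereg in kb (horizontal axis). Ereg at 0.81 lies above 0, and Epgn, Areg and Btc lie below it.

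Errfi1, the inhibitor, was slightly lower in Ad-Cre-GFP. It had 12.5, 15.3 and 14.3 CPM in Ad-Cre-GFP libraries, against 16.9, 16.2 and 17.6 CPM in Ad-GFP libraries. The groups were separate, but the Ad-Cre-GFP libraries were spread over a range wider than the gap between groups. The log2 fold change was -0.27 ± 0.07 (adjusted p = 0.0031), and 59.4% of tested genes had a larger absolute change. The ratio of Errfi1 to Egfr counts was 0.176, 0.219 and 0.195 in Ad-Cre-GFP libraries, against 0.264, 0.254 and 0.266 in Ad-GFP libraries, without overlap (two-sided exact permutation p = 0.1, the smallest possible). Since Egfr rose and Errfi1 fell without overlap, this outcome was fixed by the single genes and is no further test.

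Promoter windows are shown for Areg and Errfi1, which share a pair of elements, and for the members that held the TEAD core. TEAD proteins are the DNA-binding partners of YAP and TAZ. RefSeq windows (GRCm38.p6) ran from 250 bases before to 50 bases after the start. They were examined for 6 of the 10 genes, Egfr, Erbb2, Areg, Tgfa, Btc and Errfi1, 7 windows in all since Errfi1 has 2. Windows of the other members were not examined, which does not mean that they have none. Both strands were searched for the TEAD core GGAATG, the AP-1 element TGANTCA, the cAMP response element TGACGTCA, the TATA box TATAAA, the GC box GGGCGG and the E-box CACGTG. No match overlapped another except among neighbouring GC boxes. The windows below were chosen after the matches were seen. Capitals mark the cAMP response element and the TATA box in the first pair and the TEAD core in the second pair, where it reads CATTCC on the other strand in Errfi1.
Areg, chr5:91139349-91139648, plus strand: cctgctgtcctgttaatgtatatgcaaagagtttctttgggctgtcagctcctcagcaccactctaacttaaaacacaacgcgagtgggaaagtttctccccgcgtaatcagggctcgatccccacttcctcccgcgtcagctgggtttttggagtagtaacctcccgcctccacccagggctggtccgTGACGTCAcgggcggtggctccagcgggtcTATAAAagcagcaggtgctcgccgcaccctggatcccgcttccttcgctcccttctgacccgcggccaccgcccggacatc
Errfi1 second start, chr4:150854820-150855119, plus strand: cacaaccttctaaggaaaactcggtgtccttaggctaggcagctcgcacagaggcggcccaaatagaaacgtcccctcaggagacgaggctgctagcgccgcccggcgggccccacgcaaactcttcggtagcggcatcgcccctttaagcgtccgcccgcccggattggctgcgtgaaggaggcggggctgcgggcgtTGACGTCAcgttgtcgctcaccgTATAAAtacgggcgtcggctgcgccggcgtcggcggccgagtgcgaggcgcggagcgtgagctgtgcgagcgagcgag
Erbb2, chr11:98412234-98412533, plus strand: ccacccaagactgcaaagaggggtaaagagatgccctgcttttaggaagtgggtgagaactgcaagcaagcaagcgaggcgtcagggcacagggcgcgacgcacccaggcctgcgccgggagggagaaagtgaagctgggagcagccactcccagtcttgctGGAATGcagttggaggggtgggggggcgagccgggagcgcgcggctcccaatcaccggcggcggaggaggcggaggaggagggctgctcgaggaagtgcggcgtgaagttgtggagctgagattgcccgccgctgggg
Errfi1 first start, chr4:150853546-150853845, plus strand: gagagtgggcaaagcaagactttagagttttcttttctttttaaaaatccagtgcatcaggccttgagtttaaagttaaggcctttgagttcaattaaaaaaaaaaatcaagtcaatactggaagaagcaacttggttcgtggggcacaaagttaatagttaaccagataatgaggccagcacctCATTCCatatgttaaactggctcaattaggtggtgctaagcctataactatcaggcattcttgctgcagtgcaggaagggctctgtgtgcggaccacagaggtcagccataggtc

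Areg and the second start of Errfi1 held the same pair of elements in the same order. The cAMP response element began 61 bases before the start in Areg and 51 bases before it in Errfi1, and the TATA box 31 and 28 bases before it. Among all 32851 promoter windows, 1.79% held the cAMP response element, 13.6% the TATA box and 0.17% both. Areg, Errfi1 and Btc fell, and the window of Btc held none of the elements searched for. Hbegf, which also fell, was left out of the window search, as were Erbb3, Ereg and Nrg1. The windows therefore do not cover all members that fell, and the matches are no tally of the whole family. A link between the pair and the direction of change was not tested. The TEAD core began 88 bases before the start in Erbb2, a gene that rose slightly, and 65 bases before the first start in Errfi1, a gene that fell slightly. It was present in 14.7% of all windows. The 2 of 7 windows, from only 6 of the 10 genes, are few to set beside that share. AP-1 and E-box letters were found in none of the 7 windows, and in 7.81% and 7.15% of all windows. GC boxes were found in the windows of Areg, Tgfa, Egfr and the second start of Errfi1, and in 35.7% of all windows. A match is a description of the letters and not a binding site.

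In the lists of sheddases, adaptors, degradation genes and co-receptors more genes fell than rose in Ad-Cre-GFP, beside a median log2 fold change of -0.0065 over all tested genes, of which 34.0% were called higher and 35.8% lower. These shares of all tested genes are the background for each count below. Of 12 tested ligand sheddases and their regulators, 1 rose, 10 fell and 1 was not called, with a median of -0.58. Adam10, a protease that releases EGF and betacellulin, fell to 482 ± 7.25 CPM in Ad-Cre-GFP, against 1061 ± 67.6 CPM in Ad-GFP libraries (log2 fold change -1.14 ± 0.04, adjusted p = 1.43e-15). Rhbdf2, which encodes the ADAM17 partner iRhom2, had 29.2 ± 0.11 CPM in Ad-Cre-GFP and 53.9 ± 2.13 CPM in Ad-GFP libraries. Frmd8, which stabilises the iRhom-ADAM17 complex, had 144 ± 0.35 CPM in Ad-Cre-GFP and 211 ± 6.23 CPM in Ad-GFP libraries. Adam17, the main protease for amphiregulin, TGF-alpha and HB-EGF and named here after its value was seen, had a log2 fold change of -0.57 ± 0.04 (adjusted p = 2.16e-11). The 1 gene that rose was Adam9 (0.39 ± 0.03), and Rhbdf1 was not called (0.08 ± 0.04, adjusted p = 0.116).

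Of 19 tested receptor adaptors and RAS activators, 5 rose, 11 fell and 3 were not called, with a median log2 fold change of -0.15. Shc1, an adaptor that docks on activated ERBB receptors, fell to 86.5 ± 3.13 CPM in Ad-Cre-GFP, against 130 ± 1.13 CPM in Ad-GFP libraries. Pik3r1, the regulatory subunit of PI3K that binds phosphorylated ERBB3, fell to 53.9 ± 2.31 CPM in Ad-Cre-GFP, against 105 ± 7.50 CPM in Ad-GFP libraries. Gab1, a docking protein of EGFR, rose to 113 ± 2.95 CPM in Ad-Cre-GFP, against 74.5 ± 2.93 CPM in Ad-GFP libraries. The other genes that rose were Gab2, Ptpn11, Crk and Crkl.

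Among 28 tested genes of receptor degradation and inhibition, 8 rose, 17 fell and 3 were not called, with a median log2 fold change of -0.27. Cblb, a ubiquitin ligase that marks active EGFR for degradation, had 8.90 ± 0.54 CPM in Ad-Cre-GFP and 26.2 ± 2.21 CPM in Ad-GFP libraries (log2 fold change -1.55 ± 0.07, adjusted p = 2.53e-14). Its relative Cbl, named after its value was seen, was slightly higher (log2 fold change 0.13 ± 0.03, adjusted p = 0.00269). Socs5, which promotes EGFR degradation, had 58.6 ± 0.73 CPM in Ad-Cre-GFP and 102 ± 4.04 CPM in Ad-GFP libraries, and Socs3, an inhibitor of cytokine receptors, had 9.31 ± 0.41 CPM in Ad-Cre-GFP and 29.1 ± 1.38 CPM in Ad-GFP libraries. Lrig1, a membrane inhibitor of ERBB receptors named after its value was seen, had a log2 fold change of -0.60 ± 0.03 (adjusted p = 6.43e-14).

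All 14 tested co-receptors and membrane partners were called, 4 higher and 10 lower, with a median log2 fold change of -0.29; over all tested genes 69.8% were called. Cdh2, N-cadherin, had 826 ± 7.27 CPM in Ad-Cre-GFP and 216 ± 2.02 CPM in Ad-GFP libraries, and Cav1, caveolin-1, had 773 CPM in Ad-Cre-GFP and 267 CPM in Ad-GFP libraries (log2 fold changes 1.93 ± 0.03 and 1.53 ± 0.03). Sdc1, the heparan sulfate carrier syndecan-1, had 153 ± 2.63 CPM in Ad-Cre-GFP and 274 ± 7.07 CPM in Ad-GFP libraries. The other genes that rose were Cd44 and Itgb1.

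Transcripts that respond to ERK, the kinase downstream of the receptors, went both ways. Of 19 tested, 8 rose, 10 fell and Fosl1 was not called (0.05 ± 0.13, adjusted p = 0.752), with a median log2 fold change of -0.09. Ccnd1, cyclin D1, had 596 ± 2.78 CPM in Ad-Cre-GFP and 229 ± 10.3 CPM in Ad-GFP libraries. Dusp4, an ERK phosphatase, had 401 ± 2.40 CPM in Ad-Cre-GFP and 205 ± 11.7 CPM in Ad-GFP libraries, and Myc, a growth regulator, had 141 ± 3.16 CPM in Ad-Cre-GFP and 81.1 ± 0.49 CPM in Ad-GFP libraries. The immediate-early gene Egr1 had a log2 fold change of -2.01 ± 0.12 and Dusp6 one of -0.09 ± 0.03, both called lower and named after their values were seen. Of 9 genes listed as YAP targets and TEAD genes, 8 rose and Lats2, which the genotype label names, fell. Ccn2 had 3361 ± 41.2 CPM in Ad-Cre-GFP and 1027 ± 30.2 CPM in Ad-GFP libraries. Ccn1 had 1542 ± 8.92 CPM in Ad-Cre-GFP and 461 ± 25.7 CPM in Ad-GFP libraries, and Amotl2 had 2166 ± 35.1 CPM in Ad-Cre-GFP and 869 ± 7.63 CPM in Ad-GFP libraries.

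**Figure D5:**
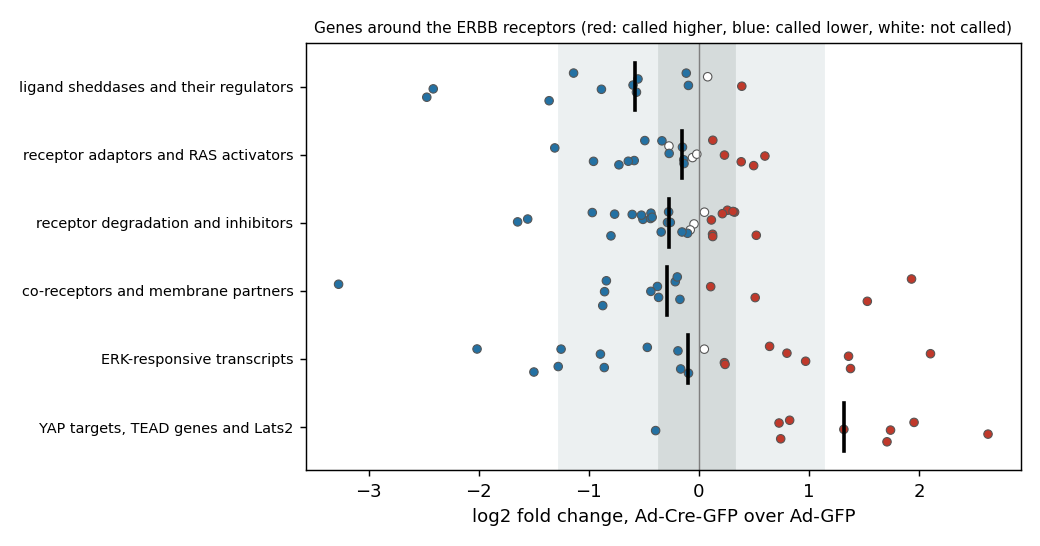
Log2 fold change (horizontal axis, Ad-Cre-GFP over Ad-GFP) of each tested gene in 6 lists around the receptors, with a black bar at each list's median. The grey bands hold the middle 50% and 90% of all tested genes; the sheddase list has its median at -0.58 with 10 of 12 genes called lower.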

How the data were processed

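Poly(A)-enriched RNA of 6 libraries was measured by RNA-seq. The authors deposited whole-number read counts per Ensembl gene, 1 column per library, taken from BAM files per the file headers. Build GRCm38, sleuth 0.30.1 and kallisto 0.46.2 are listed, per the submitters' processing notes. Aligner, counter and strand setting: not given in the sources used here. Overlapping and antisense genes therefore have uncertain counts. Symbols, positions and exon lengths came from GENCODE mouse release 21 (GRCm38), which matched 48058 of 48440 IDs; the 382 others held 0.0381% of counts. Members and gene lists were chosen with earlier results of these data known, so no list is independent evidence.

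After filterByExpr and TMM scaling, the robust quasi-likelihood test of edgeR 4.0.16 (R 4.3.3) compared the groups over all 6 libraries without a replicate block, with Benjamini-Hochberg adjustment over 14811 genes. The SE was taken from the fold change and the F statistic. CPM is counts per 1000000 of the TMM-scaled library size. Replicate pairs differed beyond sampling noise (chi-square per gene 2.04 to 4.27), so all libraries were kept. The common coefficient of variation that edgeR estimated between libraries of a group, beyond counting noise, was 3.06%. Neither value shows whether the libraries came from separate cultures. Intervals and limits for a count of 0 (3 counts over the library total before TMM scaling) cover counting error only. Named genes were the 10 members, Lats1 and Lats2, the rest of the ligand and receptor family, up to 3 called genes with the smallest adjusted p in each list, and the 5 nearest profiles to Nrg1; all others were named after their values were seen. Among GENCODE transcripts, minimap2 2.31-r1302 found 1 alignment of at least 200 bases at 90% identity between a member and another gene, the overlap of Nrg1 with Gm26578. Alternatives were DESeq2 size factors, upper-quartile scaling, other low-count filters, DESeq2 1.42.0, limma-voom (limma 3.58.1), a replicate block, and each library omitted in turn.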

Additional observations from a re-analysis of the deposited data

How the results depend on the processing

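All 10 genes kept their direction and their call in all 13 alternatives, with 6 higher and 4 lower each time. The largest adjusted p among them was 0.0476, for Erbb2 by edgeR without Ad-GFP replicate 1, and 0.0461 for Errfi1 without Ad-Cre-GFP replicate 1. Across alternatives the log2 fold change ran from 2.87 to 2.92 for Nrg1, from -1.11 to -1.03 for Areg, from 0.77 to 0.86 for Ereg, from 0.12 to 0.17 for Erbb2 and from -0.33 to -0.18 for Errfi1. No alternative shifted the log2 fold changes by a median of more than 0.017, the value without a low-count filter. The median shift was 0.0123 with DESeq2 size factors and -0.0125 with upper-quartile scaling. Calls over all genes ranged from 9351 with DESeq2 to 10854 without a low-count filter.

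Replicate numbers were not used to pair the libraries. Deviations of same-numbered libraries correlated weakly, at 0.0488, 0.0510 and 0.0050, while 4 of 6 libraries correlated best with their own number. These values do not settle whether the libraries are paired. With the replicate block, 10478 genes were called, against 10344 without it, and the log2 fold changes of the members kept their calls, with a largest adjusted p of 0.0117.

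Of the other family members, the count called lower (1, Epgn) was 0 with DESeq2, with a mean of at least 1 CPM (under which Epgn was not tested) and without Ad-GFP replicate 2. Nrg4, which was not called, changed sign with limma-voom (log2 fold change -0.056) and without Ad-Cre-GFP replicate 1 or Ad-GFP replicate 3 (-0.34 and -0.07; -0.34 to 0.26 over the omitted libraries), at 45 counts in Ad-Cre-GFP and 34 in Ad-GFP libraries; the cause was not tested. Chosen after seeing the data, the longest transcript as the length put the share of Nrg1 at 60.9% in Ad-Cre-GFP and 14.3% in Ad-GFP libraries.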
